A study of Homo sapiens with 2 samples.

Results

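CIITA, CD74 and the HLA class II genes form the machinery by which B cells present peptides to CD4+ T cells. Their PAX5 binding was examined as the ChIP-seq peaks whose summits fell in the hg19 window of a gene, extended by 10 kb on each side. The 9 genes named for these windows were CIITA, CD74, HLA-DRA, HLA-DRB1, HLA-DQA1, HLA-DMB, HLA-DMA, HLA-DPA1 and HLA-DPB1, the last pair in a common window. In all, 13 of the 21361 peaks of the list were members, with 7 at CIITA, 4 at CD74 and 2 in the stretch where the windows of HLA-DMB and HLA-DMA overlap. The windows follow gene positions given to the nearest 1 kb, which need not cover the whole of a gene. The genes were chosen with earlier results of these data known.

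The data come from untreated NALM6, a cell line established from a human B-cell precursor leukaemia. The ChIP group is 1 sample, immunoprecipitated with an Abcam antibody to PAX5, with 46190180 tags in the header of the peak call. The input group is 1 control sample made with no antibody, with 25416858 tags. The control's title also carries the name RXL, which the sources used here do not explain. With no replicates, no p-value of a difference was computed, and the intervals of reads, folds, counts and shares cover counting error only. RNA was not measured, so binding is not set beside expression.

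PAX5 binds DNA through a paired domain and holds B cells to their lineage. CIITA does not bind DNA itself. It is the class II transactivator, a co-activator that is recruited by RFX, CREB and NF-Y proteins to the X and Y boxes shared by class II promoters. HLA-DR, HLA-DQ and HLA-DP are the α and β chains that carry peptide to the cell surface. CD74, the invariant chain, fills their groove during assembly, and HLA-DM, made of HLA-DMA and HLA-DMB, exchanges the remnant of CD74 for antigenic peptide. CIITA is transcribed from several alternative promoters, 1 of which is used mainly in B cells.

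RefSeq promoters (build GRCh38.p14) were matched by symbol for 7 of the 9 genes. CIITA and HLA-DRA were not matched. Shown here are the 250 bases before the start of CD74 and HLA-DMB, the matched genes with a PAX5 summit within 1 kb of the start edge of the window. Those of HLA-DRB1 and HLA-DQA1, in whose windows no peak was called, follow for comparison. Capitals mark, on either strand, ATTGG, the core of the Y box, or GCAAC, a core of the X1 box, or TGACG, the core of the X2 box. The stretches lie on GRCh38.p14 at chr5:150412911-150413160 (minus strand), chr6:32941029-32941278 (minus), chr6:32589849-32590098 (minus) and chr6:32637156-32637405 (plus), in the order of the lines.
CD74: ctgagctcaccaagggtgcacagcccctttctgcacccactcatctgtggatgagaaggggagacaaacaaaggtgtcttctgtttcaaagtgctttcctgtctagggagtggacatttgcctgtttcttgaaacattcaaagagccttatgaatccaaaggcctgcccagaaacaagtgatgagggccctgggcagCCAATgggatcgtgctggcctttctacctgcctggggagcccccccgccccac
HLA-DMB: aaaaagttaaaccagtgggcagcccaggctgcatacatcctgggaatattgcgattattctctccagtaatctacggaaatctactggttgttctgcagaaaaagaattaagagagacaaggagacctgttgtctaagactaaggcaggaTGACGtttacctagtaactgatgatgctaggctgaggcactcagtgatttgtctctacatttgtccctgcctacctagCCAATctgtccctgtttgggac
HLA-DRB1: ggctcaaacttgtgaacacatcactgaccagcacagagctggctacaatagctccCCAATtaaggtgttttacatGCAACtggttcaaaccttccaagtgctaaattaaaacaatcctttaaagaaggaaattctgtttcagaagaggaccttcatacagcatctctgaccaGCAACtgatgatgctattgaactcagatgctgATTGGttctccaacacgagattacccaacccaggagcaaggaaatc
HLA-DQA1: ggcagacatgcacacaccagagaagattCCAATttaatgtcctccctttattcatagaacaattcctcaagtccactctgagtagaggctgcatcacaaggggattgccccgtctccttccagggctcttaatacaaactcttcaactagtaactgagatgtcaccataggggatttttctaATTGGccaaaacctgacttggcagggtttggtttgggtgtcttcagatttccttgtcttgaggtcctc

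The Y box core ATTGG was found in the promoters of 6 of the 7 matched genes within the 300 bases from 250 before to 50 after the start, against 34.6% of all 35116 RefSeq promoters of that length. HLA-DPA1 was the gene without it. The 7 genes had 8 promoter entries, because HLA-DPA1 has 2, which raises the chance of a match in HLA-DPA1. In CD74 the ATTGG match ended 48 bases before the start, and in HLA-DMB 17 bases before it. The X2 core TGACG was present in HLA-DMB, HLA-DPA1 and HLA-DPB1, with a background of 24.6% of promoters, and the X1 core GCAAC in HLA-DRB1, HLA-DMA and HLA-DPA1, with a background of 33.6%. The core of the PAX5 paired-domain consensus, GCGTGAC, was in none of the 7, and in 2.52% of all promoters. It can overlap a TGACG match. The ETS core GGAA was in all 7, as in 95.5% of promoters, so that its presence separates nothing. These matches describe exact letters in GRCh38 promoters, at any position. A match need not lie in a functional X or Y box. A box spelled otherwise is not marked, so a promoter without a match need not lack the box. The peaks are placed on hg19, and whether a peak covers a printed stretch was not determined.

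Binding was strongest within CIITA, and the strongest pair of PAX5 peaks on the whole of chromosome 16 lay inside this gene. The peak of highest fold was on chromosome 16 from 11006150 to 11007062, with its summit 35.7 kb after the start edge of the 48 kb gene window. It held 287 ChIP reads over its summit (exact Poisson 95% interval 255 to 322) against a control background of 8.33 reads, a fold enrichment of 17.0 (15.1 to 19.1). Fold enrichment is the authors' value for each peak, the scaled ChIP pileup over the local control, and its intervals here take the control as fixed. The second peak, from 10985364 to 10986244, had its summit 14.7 kb after the start edge, with 263 ChIP reads (232 to 297), a background of 10.0 reads and a fold of 13.2 (11.7 to 14.9).

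These 2 CIITA peaks had ranks 1 and 2 by fold among the 1027 peaks of chromosome 16, where the next peak had a fold of 12.3. In the whole list they had ranks 20 and 80 by fold, ranks 7 and 29 by −log10 q (132 and 105) and ranks 12 and 28 by ChIP reads. Both therefore stood near the top under each measure. Their read counts had overlapping intervals, and with 8.33 against 10.0 control reads beneath them the order between the pair was not resolved by reads. They were 913 and 881 bp wide, wider than 95.7% and 95.1% of all peaks. Of the 367 peaks in the list with a fold of at least 10, 25 (6.81%) had another such peak within 20953 bp, the distance between the summits of this pair. The distance was set by the pair, which is itself among the 25, so the share does not test how rare it is.

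Around the start edge of CIITA, PAX5 signal was spread over 3 adjoining peaks with folds from 3.02 to 4.47. They ran from 10970620 to 10972776, 2157 bp in all, with gaps of 208 and 64 bp between them. The first had its summit 83 bp before the start edge, which is within the rounding of the window, and held 83 ChIP reads over a background of 9.45 (fold 4.47). The second, 695 bp after the edge, held 75 reads over 13 (fold 3.02). The last, 1452 bp after it, held 87 reads over 15.0 (fold 3.05). The read intervals of all 3 overlapped, from 59.0 at the lowest bound to 107 at the highest. The fold intervals, 3.58 to 5.51 for the first, 2.39 to 3.77 for the second and 2.46 to 3.75 for the last, overlapped too. The others had lower fold values and higher control backgrounds than the first. Neither their folds nor their ChIP reads were set apart from it by these intervals. The control background of the last one was above that of 96.0% of all peaks.

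A pair of further CIITA peaks flanked this cluster. One, from 10962346 to 10962988, lay 8.37 kb before the start edge and held 108 reads over a background of 15.0 (fold 3.78, 3.11 to 4.55). The other, from 10980877 to 10981217, lay 10.1 kb after it and held 69 reads over 7.65 (fold 4.51, 3.53 to 5.67). The upper bound of each of the 5 weaker CIITA peaks, at most 5.67, was below the lower bound of both strong ones, 11.7 and 15.1, so the separation within the gene was larger than counting error. The RefSeq record of CIITA is 76.8 kb long against 48 kb in the window used, so the start edge need not be the outermost start of the gene. Which of the alternative promoters lies under which peak was not determined.

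**Figure D1:**
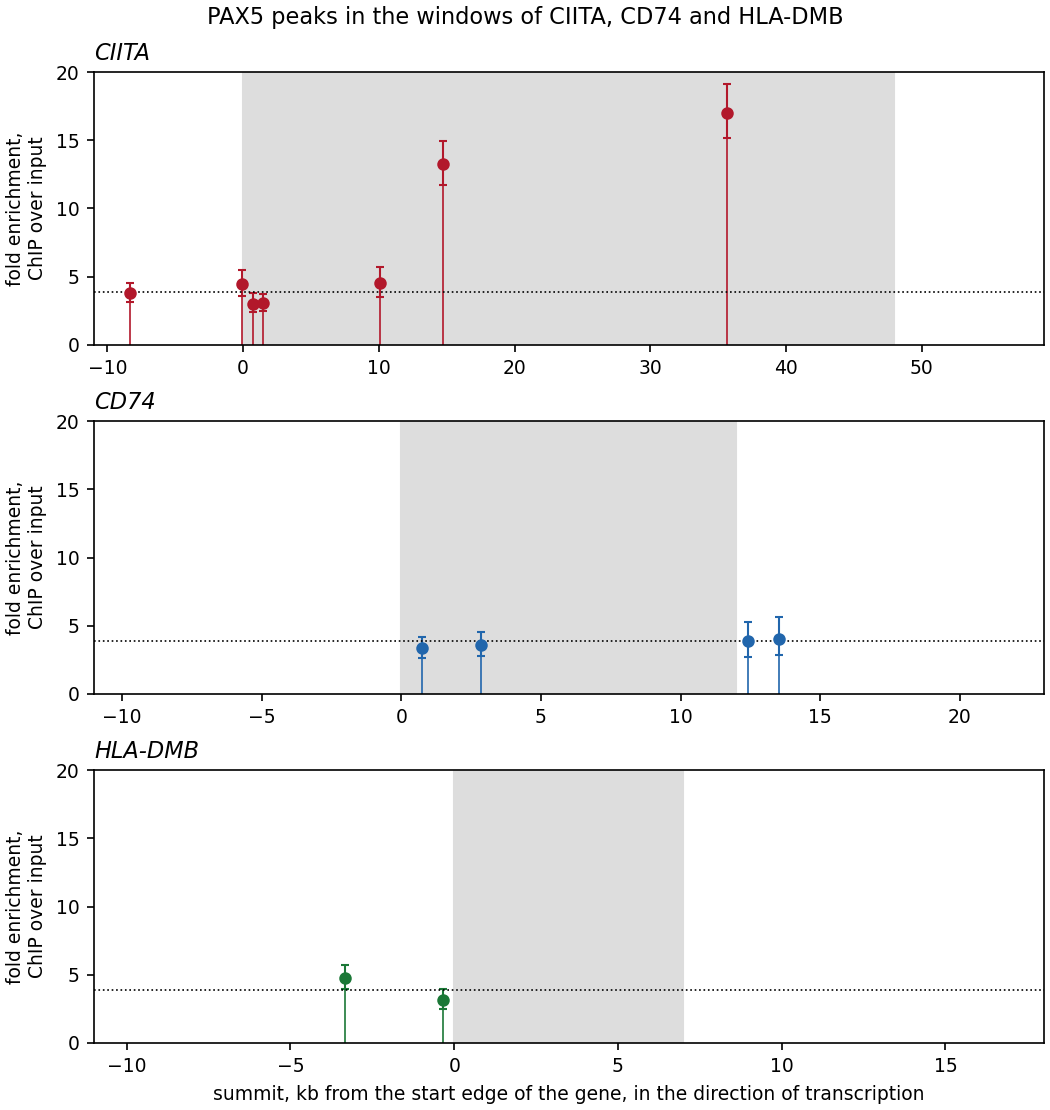
Fold enrichment of each peak (y axis, ChIP over input, with 95% Poisson intervals of the ChIP reads) against the distance of its summit from the start edge of the gene in kb (x axis), for CIITA, CD74 and HLA-DMB from top to bottom. The grey band is the gene and the dotted line the median fold of all 21361 peaks, 3.89. The CIITA peaks at 14.7 and 35.7 kb reach 13.2 and 17.0, and no other peak shown exceeds 4.78.

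At CD74, 4 peaks of moderate fold sat in pairs at the gene's 2 ends. Near the start, a peak on chromosome 5 from 149792095 to 149792531 had its summit 749 bp inside the start edge, with 71 ChIP reads (55.4 to 89.6) over a background of 11 and a fold of 3.34 (2.63 to 4.19). The next, from 149789985 to 149790525 and 2.86 kb inside, had 63 reads (48.4 to 80.6) over 9.0 and a fold of 3.57 (2.76 to 4.53). Past the other end, a peak from 149780537 to 149781399 had its summit 399 bp beyond the end edge, with 35 reads (24.4 to 48.7) over 4.27 and a fold of 3.84 (2.73 to 5.27). This offset is within the rounding of the window. The last, from 149779265 to 149779612 and 1514 bp beyond the end edge, had 32 reads (21.9 to 45.2) over 3.60 and a fold of 4.05 (2.84 to 5.62).

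All 4 folds had overlapping intervals. The reads differed more than the folds: the start peaks held 71 and 63 ChIP reads and the end peaks 35 and 32, while the control background changed in the same direction, 11 and 9.0 against 4.27 and 3.60 reads. By reads the end peaks were among the weakest of the list, above 6.12% and 3.89% of all peaks, whereas by fold they were above 48.5% and 54.9%. The summit of 32 reads compares with a lowest value of 19 among all peaks. One of the end peaks, 863 bp wide, was nevertheless wider than 94.8% of all peaks. None of the CD74 peaks reached a fold of 5.

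At the HLA-DM genes, 2 peaks lay in the stretch between the start edge of HLA-DMB and the end edge of HLA-DMA. Both genes are read from the minus strand. The peak on chromosome 6 from 32909126 to 32909655 had its summit 350 bp before the start edge of HLA-DMB, within the rounding of the window, and 6.65 kb past the end edge of HLA-DMA. It held 72 ChIP reads (56.3 to 90.7) over a background of 12.0, a fold of 3.12 (2.46 to 3.92). The peak from 32912166 to 32912589, 3.34 kb before the start edge of HLA-DMB and 3.66 kb past the end edge of HLA-DMA, held 111 reads (91.3 to 134) over the same background, a fold of 4.78 (3.94 to 5.74). By fold the 2 peaks were above 22.5% and 71.4% of all peaks. The peak farther from HLA-DMB was the stronger one, and with equal backgrounds the read intervals did not overlap. Neither summit fell between the listed borders of either gene, though the first is too close to the border of HLA-DMB to be placed outside it. Both are counted only through the added 10 kb, and without it the HLA windows held no peak.

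No peak was called in the windows of HLA-DRA, HLA-DRB1, HLA-DQA1, or HLA-DPA1 and HLA-DPB1, which together name 5 of the 9 genes. HLA-DRA encodes the nearly invariant DR α chain, HLA-DRB1 the main DR β chain, HLA-DQA1 the DQ α chain, and HLA-DPA1 and HLA-DPB1 both DP chains. The windows of the first 3 fell in a single peak-free run of 404 kb, from the summit at 32361488 to that at 32765341. The RefSeq record of HLA-DQA1 is 17.9 kb long, against 7 kb between the listed borders. From those borders the nearest summits lay 244 kb below and 153 kb above. The DP window fell in a run of 151 kb, from 32987089 to 33138130. Of the 21290 gaps between neighbouring summits on chromosomes 1 to 22 and X, 7.03% were at least as long as the first and 18.0% at least as long as the second, against a median gap of 27.1 kb. These shares count gaps and not bases. A long gap covers more bases and takes in a window more easily, so the shares understate how often a window lies in such a run.

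An empty window of this size is the common case in this list. When chromosomes 1 to 22 and X were divided into tiles of equal length, the share of tiles without a peak was 87.6% at 26 kb, the length of the HLA-DRA window. It was 85.5% at 32 kb, as for HLA-DRB1, 87.2% at 27 kb, as for HLA-DQA1, and 81.2% at 46 kb, as for the DP pair. The tiles also cover stretches with no genes, since no hg19 annotation was used. The absence of a call is also not an absence of reads. At a background equal to the genome mean of 2.12 control reads, a summit needed about 17 ChIP reads to pass the weakest p of the list, and at the median background of all peaks, 8.0, about 37. Read coverage in the empty windows was not analysed here. HLA-DRB1 has near-identical copies, and the sources used here do not say how reads that match several copies were handled.

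**Figure D2:**
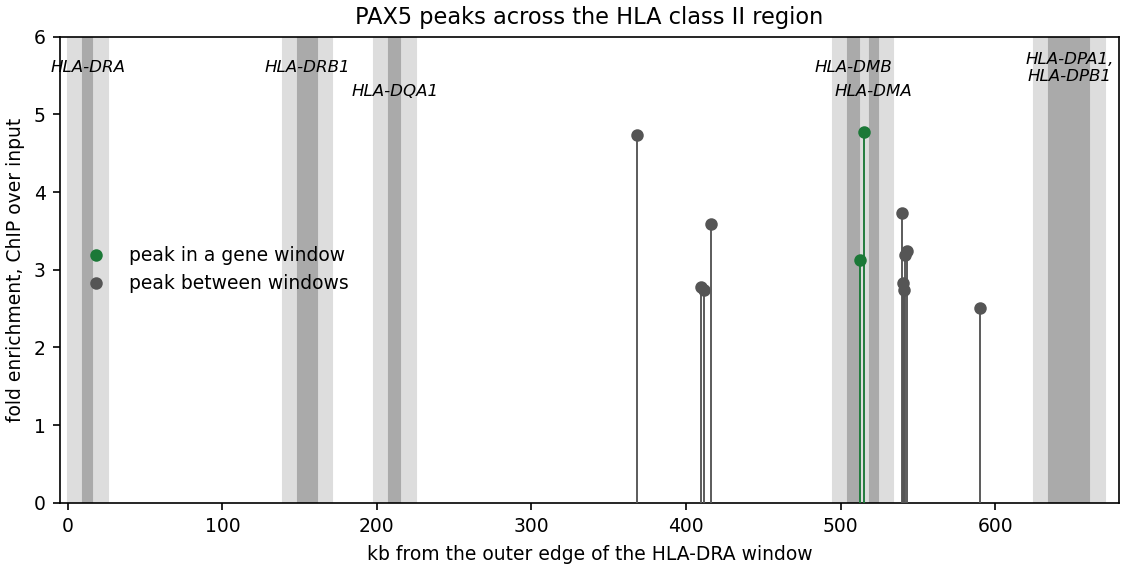
Fold enrichment (y axis, ChIP over input) of the 12 peaks in the HLA class II region against the distance in kb from the outer edge of the HLA-DRA window (x axis). Dark bands are genes and light bands the added 10 kb. The 2 green peaks lie between HLA-DMB and HLA-DMA, and no point falls in the bands of HLA-DRA, HLA-DRB1, HLA-DQA1 or the DP pair.

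Within the HLA class II region, 10 of 12 peaks lay between the windows of the member genes, in stretches that make up 501 of 671 kb. This split holds for the 10 kb flank. With a 20 kb flank the HLA-DMA window held 7 peaks in place of 2. The region of 671 kb, from the outer edge of the HLA-DRA window to that of the DP window, held 12 peaks with folds between 2.51 and 4.78. The gene windows held 2 in 170 kb, 11.8 per Mb (exact Poisson 95% interval 1.42 to 42.5), and the stretches between them 10 in 501 kb, 19.96 per Mb (9.57 to 36.7), so the densities differed by less than counting error. Of the class II and neighbouring genes listed for this pathway, HLA-DQB1, HLA-DQA2, HLA-DQB2, HLA-DOB, TAP2, PSMB8, TAP1 and PSMB9 lie in this RefSeq order between HLA-DQA1 and HLA-DMB. TAP1 and TAP2 form the peptide transporter, and PSMB8 and PSMB9 are immunoproteasome subunits. That stretch of 270 kb held 4 peaks, with folds from 2.74 to 4.73. Among them, a peak from 32811180 to 32813760, 2581 bp wide, had rank 12 of the list by width and a fold of 3.59.

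BRD2, a bromodomain protein, and HLA-DOA, the α chain of the HLA-DM inhibitor HLA-DO, lie between HLA-DMA and the DP pair. This stretch of 91 kb held 6 peaks with folds from 2.51 to 3.73. Of these, 5 had summits between 32936456 and 32940087, the nearest 15.5 kb before the start edge of HLA-DMA and so 5.46 kb outside its window. The 113 kb between the windows of HLA-DRA and HLA-DRB1, where HLA-DRB5 lies, and the 27 kb between those of HLA-DRB1 and HLA-DQA1 held no peak. The genes are given by order only, and no peak between windows was assigned to 1 of them.

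The peaks at CIITA and CD74 were crowded relative to the list, and the members other than the CIITA pair were of ordinary fold. All members together lay at 48.1 peaks per Mb of window, against 7.25 per Mb over chromosomes 1 to 22 and X, a ratio of 6.64 (95% Poisson interval 3.86 to 11.4). CIITA alone had 103 per Mb (41.4 to 212), CD74 125 (34.1 to 320) and the HLA windows 11.8 (1.42 to 42.5). The 7 peaks of the CIITA window of 68 kb were matched or exceeded in 0.636% of tiles of that length. Here adjoining calls were counted apart, in the window and in the tiles alike. The 4 peaks at CD74 were matched or exceeded in 0.875% of tiles of 32 kb, and the 2 peaks of the joint HLA-DM window in 6.21% of tiles of 39 kb. For HLA class II the interval of the density ratio, 1.62 (0.197 to 5.86), included 1, and at the 10 kb flank no difference from the list was detectable. This depends on the flank: at 20 kb the HLA-DMA window held 7 peaks in place of 2. The HLA ratio is not given for that flank. The Poisson intervals treat peaks as independent, although 3 CIITA peaks adjoin with gaps of 208 and 64 bp. Merging peaks within 500 bp joined these 3 and left 11 members, with a ratio of 6.06 (3.35 to 10.9) for all members. The chromosome-wide density and the tiles also cover stretches with no genes. Whether the windows of CIITA and CD74 were more crowded than those of other genes was not tested.

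The median fold of the 13 peaks was 3.84 (95% interval from ranks 3.12 to 4.78), against 3.89 for all peaks. This interval comes from the spread among the 13 peaks and treats them as independent, although some lie within 208 bp of each other. In total, 2 of the 13 (15.4%, Wilson 95% interval 4.33 to 42.2) reached a fold of 5, against 25% of all peaks. With no flank around the genes the share was 28.6% (2 of 7, 8.22 to 64.1), above that of all peaks, so its direction relative to the list was not resolved. The same 2, both in CIITA, reached a fold of 10 (15.4%), against 1.72% of all peaks. Of the 13, 7 lay below the median fold of the list. By contrast, 11 of the 13 had more ChIP reads than the median peak (61 reads), 11 were wider than its 383 bp, and 10 stood on a control background above its 8.0 reads. The higher read numbers thus came with a higher control at most of these sites. Whether the control background had a part in the calls at the start edges was not tested.

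**Figure D3:**
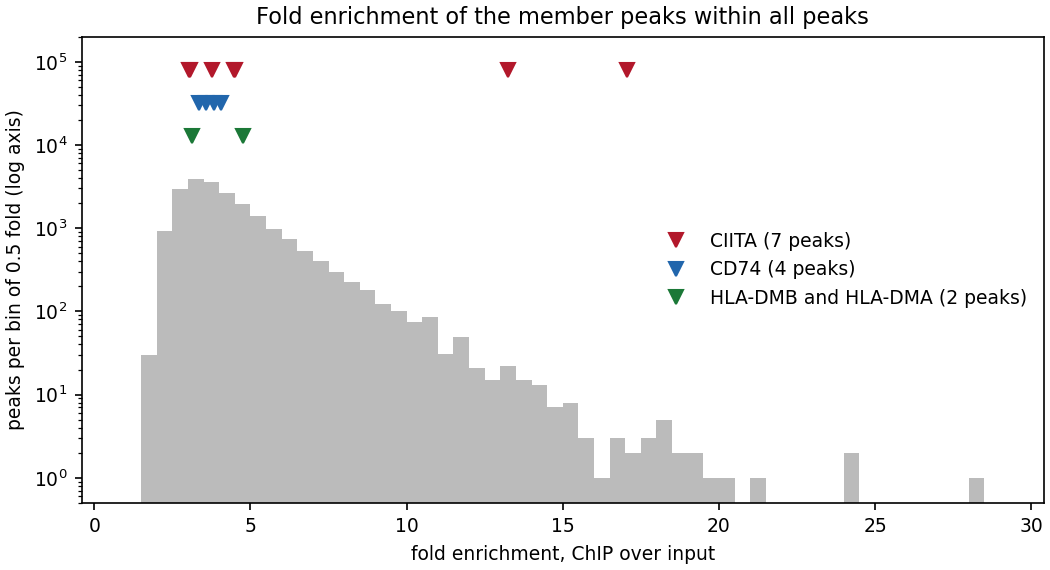
Number of peaks (y axis, log scale) in bins of 0.5 fold enrichment (x axis) for all 21361 peaks in grey, with the member peaks as triangles above (their height carries no value). Of the 13 triangles, 11 lie between 3.02 and 4.78 in the bulk of the list, and the 2 CIITA peaks at 13.2 and 17.0 lie in its upper tail.

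**Figure D4:**
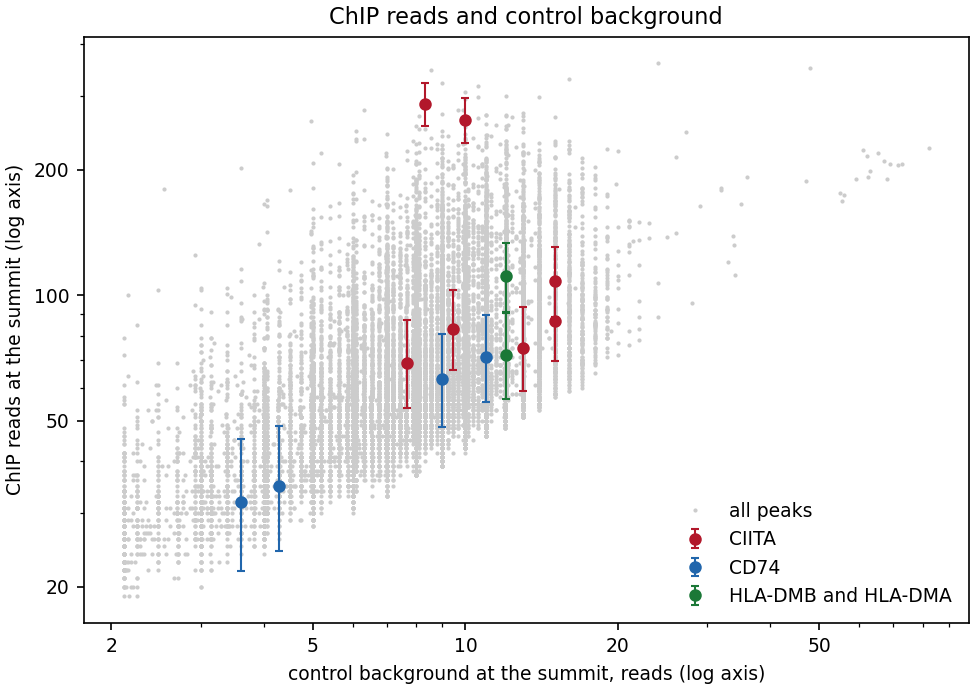
ChIP reads over the summit (y axis, log scale, with exact Poisson 95% intervals) against control background in reads (x axis, log scale) for the members in colour and all peaks in grey. The 2 strong CIITA peaks stand at 263 and 287 reads over backgrounds of 10.0 and 8.33. The CD74 pair at 32 and 35 reads stands at the low end of both axes.

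All 13 peaks were listed in the authors' cleaned peak list with identical borders. The share of all peaks kept in that list is not given here, so this does not set the members apart. The nearest summits outside the CIITA window lay 64.1 kb below the gene's lower border (fold 3.90) and 24.5 kb above its upper border (fold 3.06). Those outside the CD74 window lay 242 kb below the gene (fold 3.66) and 28.8 kb above it (fold 3.62). Those around the DP window lay 44.9 kb below its genes (fold 2.51) and 80.1 kb above them (fold 4.86).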

How the data were processed

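PAX5 ChIP-seq and an input control of NALM6 cells were measured, 1 sample each. The submitters' processing notes name BWA and the build hg19. Per the file headers, MACS2 (2.1.1.20160309) called the peaks from pooled ChIP reads and a combined control at a q-value of 0.05, with reads extended to 225 bp. The sources used here do not say how many libraries entered the pool. Pooling hides the spread between libraries.

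The deposited pileup signal counts extended ChIP reads after scaling by 0.550 to the control depth. The fold deposited by the authors is the ratio of pileup to local control background, each plus 1. The −log10 q was deposited by the authors. ChIP reads and control background were recovered from pileup and fold. All pileups (100%) were whole reads within 0.005 units, and the recomputed Poisson p was off by at most 0.05 log10 units from the deposited value for 100% of peaks. At 8 of the 13 peaks the background was whole, as a window at the summit gives (tolerance 0.005 reads, plus 0.0003 for each read), and 1 of these 8 could equally come from the 1000 bp window. The other 5 matched only the 1000 bp window.

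The members, gene lists and motifs were chosen with earlier results of these data known. By rule, all peaks are named where a window held at most 5, and otherwise the 3 of highest fold. The 4 other CIITA peaks were added after their values were seen. Of 20 further pathway genes, those outside the HLA region were not placed, because an hg19 annotation was not used. Distances count from window borders rounded to 1 kb. The strands of CIITA and HLA-DRA are textbook knowledge. The 95% intervals are exact Poisson for counts, Wilson for shares, Poisson on a log scale for the density ratio of all members, and from the ranks of the member peaks for medians. Scripts ran on Python 3.11.15 with scipy 1.17.1, numpy 2.4.6, matplotlib 3.10.9 and pandas 2.3.3, and were checked on simulated peaks.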

Additional observations from a re-analysis of the deposited data

How the results depend on the processing

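The number of member peaks, 13, became 7 with no flank, with 5 at CIITA, 2 at CD74 and none at an HLA gene. The call at HLA-DMB and HLA-DMA therefore rests on the flank. The number of member peaks was 18 with a 20 kb flank, where CIITA and CD74 kept 7 and 4 and the HLA-DMA window held 7. It was 11 at a −log10 q of at least 5 or after merging peaks within 500 bp, and 13 in the cleaned list or by any overlap. The density ratio, 6.64, lay between 6.06 and 7.85 across the flanks, thresholds, merging and chromosome background and, in settings chosen after seeing the data, was 4.10 (1.84 to 9.12) without the CIITA window and 5.22 (2.71 to 10.0) without that of CD74. The difference of median folds, -0.049, lay between -0.61 and 0.08, each with an interval that included 0. By ChIP reads the ratio of medians was 1.23 (1.03 to 1.82), above 1. The share reaching a fold of 5, 15.4% against 25% of all peaks, was 28.6% with no flank, 11.1% with a 20 kb flank, and 18.2% at the stricter threshold (34.4% of all peaks) or after merging (26.6%). It was 0% by construction without the 2 strong CIITA peaks, a setting chosen after seeing the data. No paired analysis was possible because each group has 1 sample. With 1 pooled ChIP sample, depth gives counting error but no spread between libraries, and an uncalled window has no value.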

Other observations

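Among the 20 further genes of the pathway, 18 had a RefSeq promoter. The Y box core ATTGG was in 12 of these 18, among them HLA-DRB5, HLA-DQB1, HLA-DOA, HLA-DOB and TAP1, against 34.6% of all RefSeq promoters. The X2 core TGACG was in 8 (24.6% of all promoters) and the X1 core GCAAC in 8 (33.6%). The PAX5 core GCGTGAC was in none of the 18 (2.52% of all promoters). Some of these genes have more than 1 promoter entry, which raises their chance of a match. Here too a match need not lie in a functional X or Y box.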
